A study of Mus musculus with 32 samples.

Results

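The data described here address whether induced β-catenin changed expression differently at day 4 of differentiation than at day 0, in mouse embryonic stem cells. The quantity is an interaction of day and induction. It is the change from C1H to C1HDT minus the change from C1 to C1T, on the log2 scale, and equals the effect of induction at day 4 minus its effect at day 0. A gene was called higher when this difference was above 0 with an edgeR adjusted p under 0.05, and lower when it was below 0. A higher call therefore covers a gene that rose more, fell less, or rose where it otherwise fell. The 4 groups hold 16 of the 32 libraries of the series, 4 libraries in each group, and were taken by their labels without use of any measured value.

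C1 is a single line of these cells whose own β-catenin gene is knocked out. It carries a fusion of a destabilizing domain, the red fluorescent protein mCherry and a constitutively active β-catenin, and all groups share this genotype. Doxycycline starts transcription of the fusion gene and trimethoprim (TMP) stabilizes its protein. The labels call the groups beta-catenin knockout and knockout rescued with moderate or high amounts of the exogenous protein. C1 cells were pluripotent (day 0), had received TMP without doxycycline and were sorted as living cells. C1T cells were the same cells after 4 days of monolayer differentiation in serum-free NDiff227 medium with TMP alone. C1H cells had received saturating doxycycline with TMP and were sorted for high mCherry at day 0, and C1HDT cells were then differentiated for 4 days with both inducers kept. The day 0 labels describe growth in serum with LIF, whereas the methods describe the naive 2i/L medium. No group received doxycycline without the fusion, so the drug, the sort for high mCherry and the fusion protein cannot be told apart in these comparisons. RNA was measured with QuantSeq, a method that sequences transcripts from their 3′ ends, and levels are given as CPM, the counts of a gene scaled to a common library size.

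β-catenin is the transcriptional effector of the canonical Wnt pathway, where it joins TCF/LEF factors at target genes, and it also links E-cadherin to the cytoskeleton. Naive mouse embryonic stem cells that lose LIF and kinase inhibitors leave the naive state, pass through a formative state like the early post-implantation epiblast and turn mainly to neural fates in monolayer culture. A side route leads to extraembryonic endoderm, the cells that lay down the basement membranes of the yolk sac. Germline genes are held silent in most embryonic cells by DNA methylation and by repressors at their promoters, and are partly released in naive culture.

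Total counts in the 4 groups ran from 1570743 to 3005145 with a median of 2373914.5, so that 3 counts, used as a floor, correspond to 0.998 to 1.91 CPM. Each library correlated with the other libraries of its group at r = 0.979 to 0.987 and none stood apart. Nanog averaged 580 CPM in C1 and 570 CPM in C1H, and 90.0 CPM in C1T and 80.5 CPM in C1HDT. Mitochondrial mRNA took 2.05% to 2.66% of counts in C1, 2.07% to 2.63% in C1H, 1.59% to 1.82% in C1T and 0.621% to 0.735% in C1HDT. Reads that fell on no gene were 19.5% to 23.1% of uniquely placed reads at day 0 and 10.1% to 14.8% at day 4. The part of these shares in the results below was not tested.

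Ctnnb1, the gene of β-catenin and of the fusion, showed the induction at both days. It stood at 8.81, 6.22, 5.19 and 11.0 CPM in C1 and at 40.5, 40.4, 48.7 and 34.9 CPM in C1H. At day 4 it was at 8.15, 11.2, 12.4 and 7.18 CPM in C1T and at 28.6, 36.3, 30.1 and 28.2 CPM in C1HDT. Induced and uninduced libraries did not overlap at either day. The effect of induction was 2.37 ± 0.21 (log2, SE) at day 0 and 1.62 ± 0.21 at day 4, and the interaction of -0.75 ± 0.31 did not pass the threshold (edgeR adjusted p = 0.063). This call is not a firm one, as 6 of the 24 alternative settings placed it below the threshold. Reads near the 3′ end check the induction and not the deletion. Axin2, a feedback inhibitor and common readout of the Wnt pathway, was between 0 and 2.59 CPM at day 0 and between 2.86 and 5.10 CPM at day 4, close to the floor, and its interaction was -0.66 ± 0.79 (edgeR adjusted p = 0.59).

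**Figure D1:**
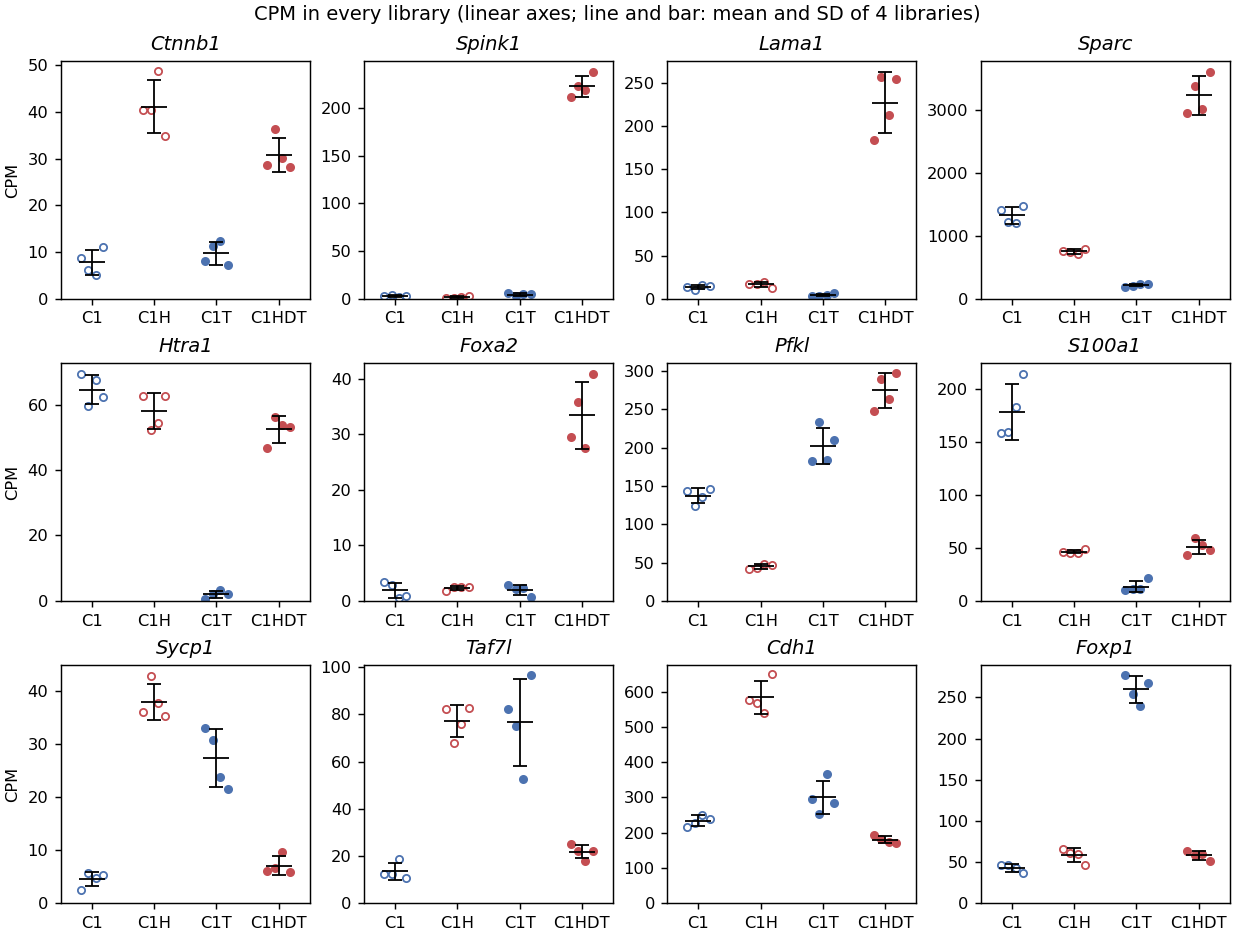
CPM of 12 genes in each of the 16 libraries, on linear axes that start at 0. Points are libraries (blue, uninduced, and red, induced, with open symbols at day 0 and filled at day 4), and lines with bars are the mean and SD of 4 libraries. Spink1, Lama1, Sparc and Foxa2 are high in C1HDT, Htra1 is low in C1T, Sycp1 and Taf7l are high in both C1H and C1T, and Foxp1 is high in C1T.

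Of 15280 genes tested, 3854 (25.2%) had a called interaction, 1931 (12.6%) higher and 1923 (12.6%) lower, and 5386 had an unadjusted p under 0.05. The balance of directions depends on the scaling, with 1740 higher and 2180 lower by library size alone and 1830 and 2035 by the RLE factors of edgeR. The median interaction over all genes tested was -0.06. The counts of each gene list below are to be read beside the 12.6% called in each direction. Among called genes with no group at the floor, 189 lay below -2 and 106 above 2 on the log2 scale. The libraries are bulk, so fewer cells of a type and less RNA per cell cannot be told apart.

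Over the 4 days 49.2% of all genes tested changed without induction (C1T minus C1), 24.4% higher and 24.9% lower, and 55.7% with it (C1HDT minus C1H), 26.3% higher and 29.4% lower. By time course, the higher calls were of several kinds. In 603 genes the level rose with constant induction and had no called change without it. In 421 it fell without induction and had no called change with it, and in 255 it fell without induction but rose with it. A further 314 fell less with induction and 312 rose more. Among the lower calls, 580 genes fell only with induction, 515 rose only without it, and 196 rose without induction but fell with it. A further 321 rose less with induction and 262 fell more. Altogether 451 of the 3854 genes moved in opposite called directions over the 4 days. The interaction is defined on ratios, and in 57 called genes the difference of differences of mean CPM had the opposite sign.

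**Figure D2:**
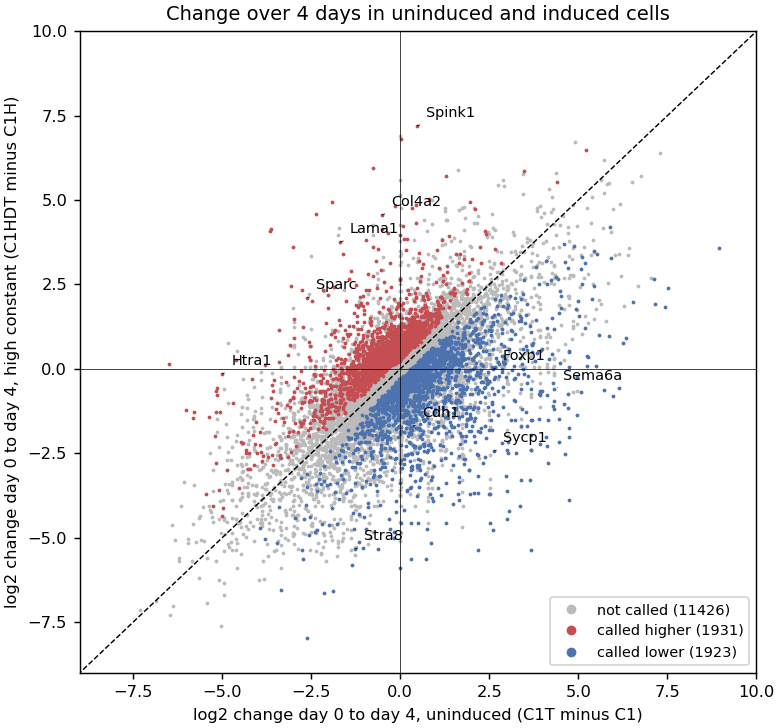
Log2 change from day 0 to day 4 of every gene tested, without induction (x axis) and with high constant induction (y axis). Red points are the 1931 genes called higher, blue points the 1923 called lower, and grey points the genes not called, with a dashed line where both changes are equal. Spink1, Lama1, Col4a2 and Sparc lie far above the line, and Sycp1, Sema6a and Foxp1 far below it.

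By the effects of induction at each day, which are the parts of the interaction and no separate evidence, 1748 called genes (45.4%) responded at day 4 only and 996 (25.8%) at day 0 only. Effects were called at both days with opposite signs for 570 genes (14.8%), of which 338 were lower with induction at day 0 and higher at day 4, and 232 the reverse. Same-sign effects that grew were found for 214 genes and that shrank for 83, and 243 had no called effect at either single day. The C1H minus C1 comparison called 25.9% of all genes tested (13.8% higher and 12.1% lower) and the C1HDT minus C1T comparison 33.5% (17.4% higher and 16.1% lower).

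Basement membrane genes were among the most affected. Of 13 members tested, 10 were called higher and none lower, with a median interaction of 2.26, where 12.6% of all genes tested were called higher. All alternative settings gave 10 higher calls. The members described here encode laminin chains (Lama1, Lamb1 and Lamc1), type IV collagen chains (Col4a1 and Col4a2), and the collagen-binding glycoprotein Sparc. The perlecan gene Hspg2 (2.64), the collagen chaperone Serpinh1 (2.57) and the prolyl hydroxylase subunit P4ha1 (2.24) were called higher too.

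Lama1, on chromosome 17 (GRCm38, 17:67697259-67822647, plus strand), encodes the laminin chain typical of the early embryo. It stood at 13.4, 10.8, 16.1 and 15.3 CPM in C1 and 17.7, 16.7, 19.8 and 12.2 CPM in C1H. In C1T it was at 3.36, 3.75, 4.29 and 6.52 CPM and in C1HDT at 184, 257, 213 and 255 CPM. The 2 day 0 groups overlapped, while every C1HDT library lay far above every C1T library. The interaction was 5.44 ± 0.38 (edgeR adjusted p = 4.1e-15), as Lama1 fell by 1.68 on the log2 scale without induction and rose by 3.76 with it.

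Sparc (11:55394500-55423183, minus strand) had the smallest adjusted p of all genes tested. Its levels were 1409, 1226, 1208 and 1470 CPM in C1, 768, 748, 708 and 794 CPM in C1H, 195, 208, 234 and 234 CPM in C1T, and 2953, 3376, 3016 and 3609 CPM in C1HDT. Induced libraries thus lay below uninduced ones at day 0 and above them at day 4, without overlap. The interaction was 4.71 ± 0.10 (edgeR adjusted p = 8.2e-86), made of an effect of -0.82 ± 0.07 at day 0 and of 3.90 ± 0.08 at day 4.

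Col4a2 showed the same reversal, at 18.0, 16.4, 18.7 and 18.7 CPM in C1, 8.17, 11.2, 10.3 and 11.8 CPM in C1H, 13.4, 13.7, 10.5 and 12.4 CPM in C1T, and 196, 305, 237 and 238 CPM in C1HDT, with an interaction of 5.07 ± 0.25. Its partner Col4a1, which lies head to head with it on chromosome 8, averaged 24.6, 20.4, 30.4 and 553 CPM in the same order of groups, with an interaction of 4.44 ± 0.23. The 2 genes overlap at their starts, away from the 3′ ends that QuantSeq reads. Lamb1 was already higher with induction at day 0 (means of 62.7 CPM in C1 and 106 CPM in C1H) and then averaged 55.5 CPM in C1T and 448 CPM in C1HDT. Lamc1 fell with and without induction, from a mean of 394 to 61.7 CPM without induction and from 313 to 213 CPM with it. It is an example of a higher interaction (2.11 ± 0.12, edgeR adjusted p = 5.2e-33) that reflects a smaller fall. The 3 members without a call, Lama5, Nid2 and P4ha2, had interactions between -0.34 and 0.27.

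Transcription factors of the endoderm gave 6 higher and no lower calls among 10 tested, with a median interaction of 2.66, in which 4 members with a group at the floor are included. No member had a called effect of induction at day 0, and 7 were called higher at day 4. Foxa2, a pioneer factor of the endoderm, was at 3.36, 2.83, 0.519 and 0.957 CPM in C1, at 1.70, 2.44, 2.56 and 2.52 CPM in C1H, at 2.88, 2.08, 2.38 and 0.652 CPM in C1T, and at 29.6, 35.8, 27.6 and 40.8 CPM in C1HDT. The first 3 groups overlapped near the floor and C1HDT stood apart from all of them, with an interaction of 3.75 ± 0.64 (edgeR adjusted p = 7.5e-07). Gata4, a zinc finger factor of extraembryonic and definitive endoderm, averaged 3.85, 6.73, 2.22 and 28.9 CPM in C1, C1H, C1T and C1HDT (interaction 2.69 ± 0.51). Sox17 was at 0.959, 0, 0 and 0 CPM in C1T, under the floor, and at 17.7, 21.5, 23.0 and 27.2 CPM in C1HDT, whereas day 0 libraries held 1.13 to 5.58 CPM. Its call (edgeR adjusted p = 5e-09) has no fold for this reason. With only genes of at least 1 CPM in all 16 libraries kept, no member of this list was called, as this filter removes genes near the floor outside C1HDT.

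Effector genes of visceral and parietal endoderm were split. Of 13 tested, 7 were called higher, none lower and 6 had no call, and 4 were called with the filter of 1 CPM in all 16 libraries. Dab2, an adaptor for endocytosis, was at 8.81, 9.05, 4.15 and 4.31 CPM in C1, 11.6, 10.8, 16.5 and 14.7 CPM in C1H, 12.0, 11.7, 14.8 and 6.52 CPM in C1T, and 414, 507, 400 and 445 CPM in C1HDT (4.25 ± 0.55, edgeR adjusted p = 9.5e-07). Amn, which encodes amnionless, a membrane anchor of the cubilin receptor of visceral endoderm, averaged 2.69, 6.03, 3.74 and 123 CPM (3.88 ± 0.56). Srgn, the proteoglycan serglycin, averaged 7.86, 8.47, 5.01 and 101 CPM (4.18 ± 0.35). The secreted plasma proteins did not follow, with interactions of -0.05 for Apoa1, -0.10 for Ttr, -0.14 for Apob and -0.18 for Rbp4, each without a call. Apoa1 averaged 608, 416, 712 and 469 CPM in C1, C1H, C1T and C1HDT. Apoe, by contrast, had a small higher call (0.77, edgeR adjusted p = 0.00027).

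Several of the largest positive interactions belong to none of these lists. Spink1, a secreted inhibitor of trypsin-like proteases, had the largest estimate among called protein-coding genes that averaged 2 or more in log2 CPM and had no group at the floor (6.72 ± 0.64, edgeR adjusted p = 1.4e-13). Its levels were 3.36, 4.53, 1.56 and 3.35 CPM in C1, 0.681, 0.697, 2.2 and 2.52 CPM in C1H, 5.75, 2.50, 5.24 and 4.57 CPM in C1T, and 211, 223, 219 and 237 CPM in C1HDT. The 4 C1HDT libraries were tightly grouped and the others lay within a few CPM of the floor. Pth1r, the receptor of parathyroid hormone and its related peptide, averaged 7.74, 5.20, 7.36 and 149 CPM (4.97 ± 0.37). Cited1, a coactivator that binds CBP and p300, averaged 2.00, 3.38, 0.923 and 48.5 CPM (4.78 ± 0.69), and Amot, a scaffold of the Hippo pathway, 3.56, 2.59, 4.73 and 76.5 CPM (4.43 ± 0.50). Npl, an enzyme of sialic acid breakdown, averaged 5.08, 5.77, 1.28 and 31.3 CPM (4.28 ± 0.55).

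Htra1 reached a similar estimate by another path. This secreted serine protease was at 69.2, 59.4, 67.4 and 62.2 CPM in C1 and 62.7, 52.3, 54.2 and 62.6 CPM in C1H. It dropped to 0.480, 2.08, 3.34 and 1.96 CPM in C1T and was at 46.6, 56.3, 53.6 and 53.1 CPM in C1HDT. The fall of 5.00 on the log2 scale seen without induction was thus absent from the induced cells, where the change was -0.15 ± 0.12 without a call, and the interaction was 4.85 ± 0.28 (edgeR adjusted p = 1.7e-33). Lrpap1, a chaperone of the LDL receptor family, had the second smallest adjusted p of the higher genes (3.02 ± 0.15, edgeR adjusted p = 1.5e-41), with means of 91.7, 66.6, 40.9 and 238 CPM.

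**Figure D3:**
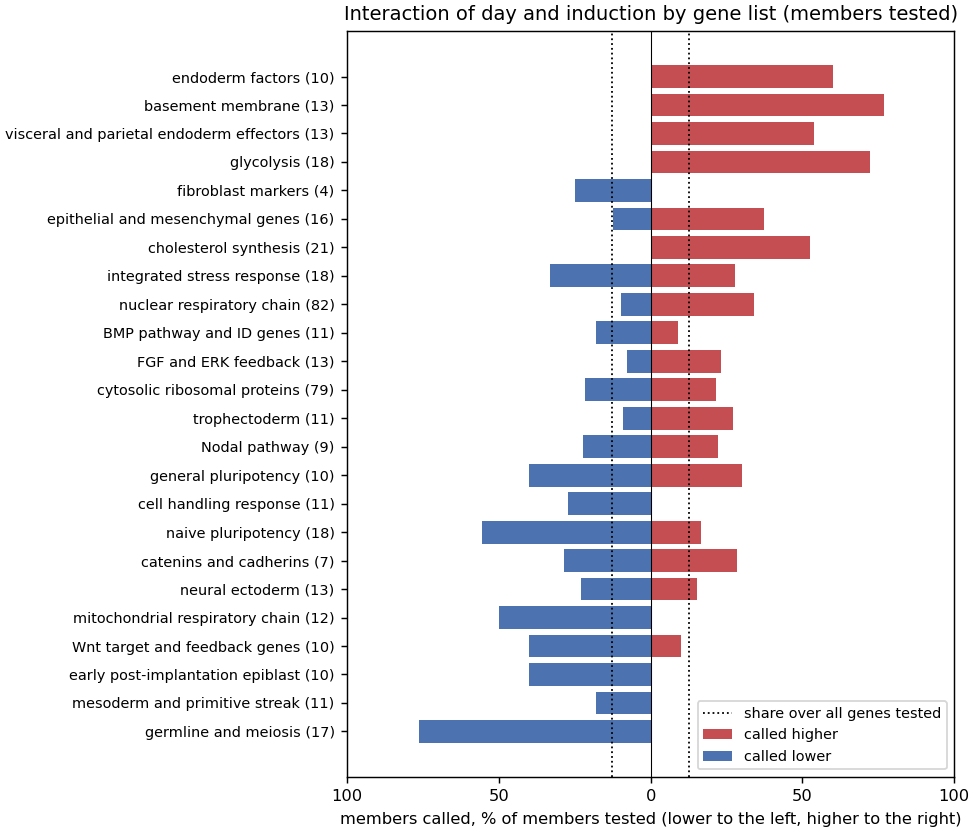
Share of the tested members of each gene list that was called higher (red, to the right) or lower (blue, to the left), with the number tested in parentheses and lists ordered by their median interaction. Dotted lines mark the 12.6% of all genes tested that was called in each direction. Basement membrane, glycolysis and endoderm lists have higher calls and no lower ones, and the germline list has lower calls and no higher ones.

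Of 18 glycolysis genes tested, 13 were called higher and none lower in the interaction, with a median of 1.03, and the count was 13 or 14 under all alternatives. At day 0, 14 members were lower with induction and none higher. At day 4, 12 were higher and 2 lower, and 8 members had called effects of opposite sign. Pfkl (10:77986947-78010083, minus strand), the liver-type phosphofructokinase, stood at 144, 124, 135 and 145 CPM in C1, 42.2, 42.9, 48.0 and 47.1 CPM in C1H, 183, 233, 184 and 209 CPM in C1T, and 248, 289, 264 and 297 CPM in C1HDT. Groups did not overlap at either day, and the effect of induction changed from -1.61 ± 0.10 to 0.44 ± 0.08 (interaction 2.05 ± 0.13, edgeR adjusted p = 2.3e-29). Ldha, which makes lactate, averaged 674, 359, 905 and 1132 CPM (1.23 ± 0.10), and Aldoa, the main aldolase, 2132, 1157, 2090 and 2456 CPM (1.11 ± 0.09). Aldoc, the brain-type aldolase, had the largest interaction of the list, at 35.7, 39.6, 50.8 and 45.5 CPM in C1, 20.4, 24.4, 16.5 and 18.9 CPM in C1H, 13.9, 17.1, 13.8 and 18.3 CPM in C1T, and 50.3, 52, 34.8 and 56.2 CPM in C1HDT (2.71 ± 0.24). The glucose transporter Slc2a3 differed in that it did not pass the test at day 0 (-0.12 ± 0.07) and was higher at day 4 (1.34 ± 0.07).

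Of 21 cholesterol synthesis genes tested, 11 were called higher, none lower and 10 had no call, with a median of 0.50. At day 0, 1 was higher and 12 were lower with induction, at day 4, 9 were higher and 3 lower, and 5 had called effects of opposite sign. Pmvk, phosphomevalonate kinase, averaged 247, 165, 197 and 291 CPM (1.16 ± 0.11), and Cyp51, lanosterol demethylase, 202, 144, 326 and 457 CPM (0.98 ± 0.11). Both were lower with induction at day 0 and higher at day 4.

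Other crossed effects were found outside metabolism. S100a1, a calcium-binding protein, was at 158, 159, 183 and 214 CPM in C1, 46.3, 45.3, 45.4 and 48.7 CPM in C1H, 10.1, 10.8, 11.4 and 21.5 CPM in C1T, and 43.5, 59.2, 53.2 and 47.6 CPM in C1HDT. It fell by 3.79 on the log2 scale without induction and had no called change with it (0.12 ± 0.13), so that induced cells had the lower level at day 0 and the higher level at day 4 (interaction 3.91 ± 0.20, edgeR adjusted p = 2.5e-36). Its neighbour S100a13, which starts next to it on the other strand of chromosome 3 without overlap, fell with and without induction, from a mean of 208 to 5.65 CPM and from 69.8 to 17.4 CPM (3.22 ± 0.25). Ndufa4l2, a paralog of a respiratory chain subunit that is induced in hypoxia, ranged from 0 to 7.36 CPM at day 0, from 2.38 to 7.83 CPM in C1T and from 10.5 to 14.6 CPM in C1HDT (2.67 ± 0.58). Its 3′ end overlaps that of Shmt2 on the other strand, and the strand setting of the counting is not given in the sources used here.

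Germline and meiosis genes formed the opposite pole. Of 17 members tested, 13 were called lower and none higher, with a median interaction of -1.76, in which 4 members with a group at the floor are included, where 12.6% of all genes tested were called lower, and 11 to 14 were called under the alternatives. At day 0, 15 were higher with induction and none lower. At day 4, 6 were lower and none higher, and those 6 had crossed effects. The median change over the 4 days was 0.89 without induction and -1.20 with it.

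Sycp1 (3:102818499-102936100, minus strand), which forms the transverse filaments of the synaptonemal complex, had the most negative interaction among called protein-coding genes that averaged 2 or more in log2 CPM and had no group at the floor (-5.07 ± 0.32, edgeR adjusted p = 3.9e-31). It was at 2.52, 5.66, 4.67 and 5.26 CPM in C1, 36.1, 42.9, 37.7 and 35.3 CPM in C1H, 33.1, 30.8, 23.8 and 21.5 CPM in C1T, and 6.12, 6.68, 9.63 and 5.79 CPM in C1HDT. The gene was high after induction alone and after differentiation alone, and low with neither or both. Taf7l, a germ cell paralog of a general transcription factor subunit, had the same pattern at 12.2, 12.4, 18.7 and 10.5 CPM in C1, 82.4, 67.9, 75.8 and 82.8 CPM in C1H, 82.5, 74.9, 52.4 and 96.6 CPM in C1T, and 24.8, 21.9, 18.0 and 22.1 CPM in C1HDT (-4.32 ± 0.25, edgeR adjusted p = 2e-21). Sycp2, an axial element protein outside the list, averaged 3.06, 20.4, 10.6 and 4.73 CPM (-3.96 ± 0.45).

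Stra8, which admits germ cells to meiosis and is likewise outside the list, differed in that it fell with and without induction. Its levels were 21.8, 21.5, 23.9 and 24.9 CPM in C1, 71.8, 76.0, 73.3 and 82.4 CPM in C1H, 10.1, 12.1, 7.62 and 7.83 CPM in C1T, and 4.42, 0, 1.26 and 1.02 CPM in C1HDT (-4.07 ± 0.38). Dazl, an RNA-binding protein of germ cells, averaged 18.3, 77.7, 18.4 and 9.92 CPM (-2.97 ± 0.26), so that its level without induction had no called change. Tex19.1 averaged 84.7, 140, 156 and 86.3 CPM (-1.58 ± 0.14) and its paralog Tex19.2 2.12, 20.1, 7.53 and 6.91 CPM (-3.41 ± 0.47), and reads may be split between the pair. Of the 4 members without a call, Kit had an interaction of -0.37, and Tdrd9, Asz1 and Nanos3 had at least 1 group at the floor and are given no fold.

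RefSeq promoter windows (GRCm38.p6, 250 bases before to 50 bases after the start) existed for 16 of the 17 germline genes. The E-box CACGTG, a palindrome and thus the same on both strands, was present in 9 of these 16 (Sycp1, Taf7l, Tdrd1, Hormad1, Mael, Ddx4, Tdrd9, Sycp3 and Stk31). It was present in 7.15% of all 32851 windows and in 8.09% of the 27025 genes they belong to, in none of 10 basement membrane genes, 2 of 17 glycolysis genes, none of 5 endoderm factors and 2 of 11 naive pluripotency genes with a window. The match is a description of these letters and shows no binding. The 100 bases before the start of the 3 genes with the most negative interactions among the 9, leaving out those with a group at the floor, are printed 5′ to 3′ on the strand of the gene, with CACGTG in capitals, to show where it lies.
Sycp1, chr3:102936101-102936200, minus strand: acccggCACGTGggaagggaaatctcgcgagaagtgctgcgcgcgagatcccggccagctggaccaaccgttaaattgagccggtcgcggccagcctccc
Taf7l, chrX:134476491-134476590, minus strand: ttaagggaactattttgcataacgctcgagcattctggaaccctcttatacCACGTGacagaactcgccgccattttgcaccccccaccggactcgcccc
Hormad1, chr3:95559577-95559676, plus strand: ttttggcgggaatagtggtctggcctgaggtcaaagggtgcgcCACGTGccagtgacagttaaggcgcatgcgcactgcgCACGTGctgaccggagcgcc
The box starts 94 bases before the start of Sycp1, 49 bases before that of Taf7l, and Hormad1 holds it at 57 bases and once more nearer to the start. The 7 genes without it include Dazl, whose interaction of -2.97 was among the most negative of the list, so that a strong lower call was seen with and without these letters.

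**Figure D4:**
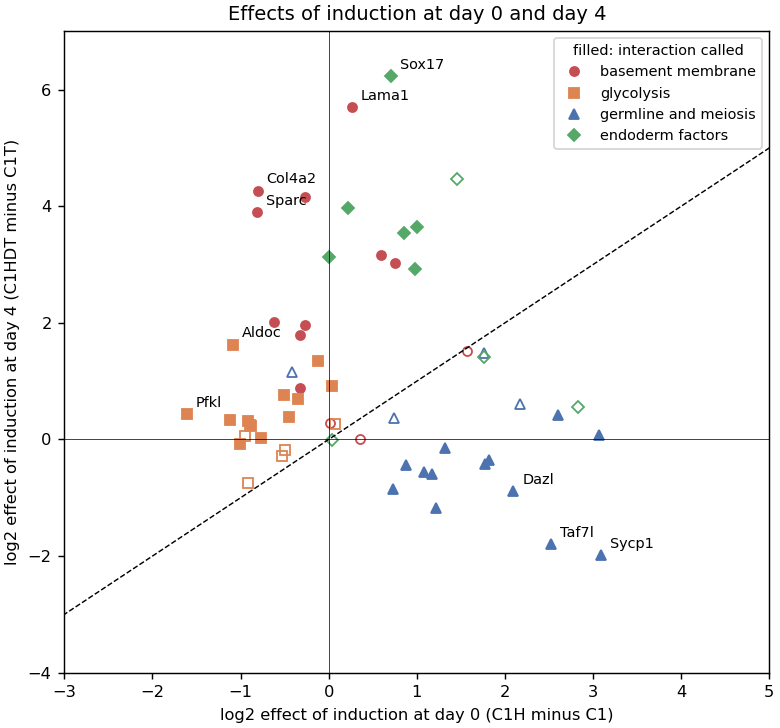
Log2 effect of induction at day 0 (x axis) and at day 4 (y axis) for the tested members of 4 gene lists, with filled symbols for called interactions and a dashed line where both effects are equal. Glycolysis members lie mostly left of 0 at day 0 and above 0 at day 4, germline members to the right at day 0 and mostly below 0 at day 4 where the interaction was called, and endoderm factors rise along the day 4 axis.

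Genes that rose during differentiation of the uninduced cells and not, or less, with induction made up another set of lower calls. Sema6a, a transmembrane semaphorin, was at 2.94, 2.26, 1.56 and 0.957 CPM in C1, 2.72, 4.18, 2.93 and 4.20 CPM in C1H, 48.0, 34.1, 45.3 and 30.7 CPM in C1T, and 0.340, 0.954, 3.35 and 4.42 CPM in C1HDT (-4.89 ± 0.57, edgeR adjusted p = 1.3e-12). C1T was the single group with appreciable expression. Proser3 averaged 2.74, 4.44, 24.9 and 2.26 CPM (-4.12 ± 0.53). Foxp1 (6:98925338-99522721, minus strand), a forkhead transcription factor, stood at 46.6, 45.8, 42.0 and 35.9 CPM in C1, 65.7, 60.3, 60.1 and 46.2 CPM in C1H, 277, 254, 240 and 267 CPM in C1T, and 63.6, 57.7, 59.5 and 51 CPM in C1HDT. It rose by 2.61 on the log2 scale without induction and had no called change with it (-0.01 ± 0.11), with an interaction of -2.62 ± 0.16 (edgeR adjusted p = 1.8e-31). Bmp4, a ligand of the BMP pathway, averaged 8.08, 10.2, 49.7 and 6.07 CPM (-3.39 ± 0.35, edgeR adjusted p = 4e-15). Bmp4 was 1 of 2 lower calls among 11 BMP pathway and ID genes tested, and Id2 was the 1 higher call (0.78). The share called, 27.3%, was near the 25.2% of all genes tested, and the alternatives gave 1 to 2 higher calls.

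Markers of the early post-implantation epiblast gave 4 lower and no higher calls among 10 tested, with a median of -1.26. Dnmt3a, a de novo DNA methyltransferase, averaged 46.3 CPM in C1 and 46.1 CPM in C1H, and rose to 747 to 875 CPM in C1T and to 249 to 293 CPM in C1HDT (-1.58 ± 0.14, edgeR adjusted p = 2.7e-20). Pou3f1 averaged 4.29, 8.38, 255 and 157 CPM (-1.68 ± 0.38) and Sox4 12.7, 31.6, 113 and 101 CPM (-1.50), and both are transcription factors. Sox3, a factor of neural progenitors, averaged 1.14, 4.44, 25.6 and 22.2 CPM (-2.17 ± 0.51), and its groups overlapped at day 4. The members without a call included Otx2 (0.09), Dnmt3b (0.41) and Lef1 (-1.03). In each of the 4 called genes the level rose with and without induction.

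Naive pluripotency markers had 3 higher and 10 lower calls among 18 tested, with a median of -0.42. Over the alternatives 7 to 10 were lower and 2 to 5 higher, with 5 higher without C1T replicate 2 or C1HDT replicate 3. Of the 18 markers, 15 fell with and without induction, the others being Gbx2, Nr0b1 and Dppa3. Median changes over the list were -1.73 without and -2.18 with induction. Nr0b1, an orphan nuclear receptor, was at 58.7, 100.2, 92.9 and 40.7 CPM in C1, 51.1, 60.3, 68.1 and 53.8 CPM in C1H, 71.0, 73.7, 43.8 and 43.1 CPM in C1T, and 9.52, 7.16, 10.0 and 10.9 CPM in C1HDT (-2.31 ± 0.38, edgeR adjusted p = 3.4e-05). It had no called change without induction and fell with it. Fbxo15, a target of Oct4, averaged 297, 871, 128 and 170 CPM (-1.14 ± 0.11), so that induced cells were higher at both days by a different margin. Gbx2, listed with the naive markers, rose with and without induction and averaged 1.16, 3.15, 25.9 and 10.6 CPM (-2.70 ± 0.58). Klf4 (0.64) and Tcl1 (0.78) were called higher, having fallen less with induction. The other higher call, of Klf5, was lost under 7 of 24 alternatives. Nanog (-0.12), Klf2 (0.01) and Tbx3 (0.31) had no call.

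General pluripotency genes were split, with 3 higher and 4 lower calls among 10, and 1 higher call without C1T replicate 3 or with scaling by library size alone. Utf1 rose from a mean of 32.5 to 299 CPM without and from 31.8 to 136 CPM with induction (-1.12 ± 0.18), and Tdgf1, a Nodal coreceptor, fell from 563 to 254 CPM and from 574 to 126 CPM (-1.03 ± 0.13). Sox2 averaged 859, 760, 443 and 257 CPM (-0.60, edgeR adjusted p = 9.1e-05). Lin28a, an RNA-binding protein that blocks let-7, was called higher (1.25 ± 0.36), with means of 12.9, 6.44, 481 and 574 CPM. The small higher call of Pou5f1 (0.45, edgeR adjusted p = 0.045) changed under 13 of 24 alternatives.

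Cdh1 (8:106603351-106670246, plus strand), which encodes E-cadherin, the adhesion partner of β-catenin, had one of the smallest adjusted p-values among the lower genes. It was at 216, 228, 251 and 240 CPM in C1, 575, 569, 540 and 651 CPM in C1H, 295, 254, 366 and 283 CPM in C1T, and 192, 182, 172 and 170 CPM in C1HDT. The effect of induction turned from 1.32 ± 0.08 at day 0 to -0.74 ± 0.08 at day 4, without overlap of the groups at either day (interaction -2.06 ± 0.11, edgeR adjusted p = 3.2e-36). Ctnnd1, p120 catenin, was lower as well (-0.90), whereas α-catenin Ctnna1 (0.58) and plakoglobin Jup (0.83) were higher. Epcam, another epithelial adhesion molecule, averaged 30.7, 68.6, 126 and 123 CPM (-1.21 ± 0.16). Among 16 epithelial and mesenchymal genes tested 6 were higher and 2 lower.

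Wnt target and feedback genes gave 1 higher and 4 lower calls among 10 tested, and the called members were near the floor in most libraries. Lef1, by contrast, was well expressed at day 4 and had no called interaction. It rose 108-fold without induction and 52.9-fold with it. The list summed to 276 to 329 CPM in C1T and 141 to 160 CPM in C1HDT, most of it Lef1. Nkd1, an inhibitor that binds Dishevelled, was at 0.839, 5.09, 1.04 and 1.44 CPM in C1, 5.45, 6.27, 6.23 and 7.14 CPM in C1H, 2.88, 5.83, 7.15 and 2.61 CPM in C1T, and 2.38, 3.82, 4.61 and 2.72 CPM in C1HDT (-2.15 ± 0.62, edgeR adjusted p = 0.0043). Its groups did not overlap at day 0 and overlapped at day 4, and its call held in the 23 alternatives that gave it a value. The 4 lower calls came to 1 without C1T replicate 2 or with 1 CPM required in all 16 libraries, and to 2 without C1 replicates 3 or 4, C1H replicates 2 or 4, C1T replicate 1, or C1HDT replicates 1 or 2. The calls of Dkk1, Sp8 and Znrf3 were lost under 11, 14 and 11 alternatives, and Nkd2 lost its call without C1T replicate 2 (edgeR adjusted p = 0.0598). Dkk1, a secreted Wnt antagonist, was at 2.72, 8.11, 7.12 and 8.51 CPM in C1HDT and between 0 and 1.44 CPM in the other 12 libraries, and its edgeR adjusted p of 0.044 rose to 0.380 without C1 replicate 3.

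Signalling lists had mixed calls. The share called was 44.4% for the Nodal, 30.8% for the FGF and ERK and 38.5% for the neural list, beside 25.2% of all genes tested. Of 9 Nodal pathway genes 2 were higher and 2 lower, the largest being Gdf3, a ligand of this pathway, with means of 106, 40.7, 94.1 and 116 CPM (1.68 ± 0.15, edgeR adjusted p = 1.6e-19). Of 13 FGF and ERK feedback genes 3 were higher and 1 lower, with 1 higher without C1T replicate 1 or C1T replicate 3. Etv4, an ETS factor downstream of FGF, averaged 27.5, 6.60, 147 and 113 CPM (1.68 ± 0.26), and Spry2, a feedback inhibitor, 40.6, 91.3, 240 and 203 CPM (-1.40 ± 0.14). Among 13 neural ectoderm genes tested, Sox1 was higher (1.22 ± 0.20) with means of 22.7, 15.0, 92.3 and 143 CPM and Irx3 lower (-1.77 ± 0.33) with means of 3.82, 8.62, 83.0 and 54.0 CPM. In all, 2 of these were higher and 3 lower, with 1 lower under the filter of 1 CPM in all 16 libraries. The other higher gene, Nes, lost its call under 11 of 24 alternatives, 7 of them with 1 library left out.

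Markers of other cell types that the cultures could hold were read in the same way. The share called was 18.2% for the mesoderm, 36.4% for the trophectoderm, 25% for the fibroblast and 27.3% for the cell handling list. Over all genes tested it was 25.2%, so most of these shares lay near or under it. Of 11 mesoderm and primitive streak genes 2 were lower and none higher, of which the call of Wnt3 changed under 13 of 23 alternatives, 11 of them with 1 library left out. Over the alternatives this list had 0 to 2 lower and 0 to 1 higher calls. The summed level of the 15 listed was 66.2 to 71.7 CPM in C1, 58.6 to 71.8 CPM in C1H, 105 to 131 CPM in C1T and 38.6 to 59.1 CPM in C1HDT. Hoxb1, the gene with the clearest call there, was at 95.9, 96.1, 68.1 and 82.9 CPM in C1T and at 21.8, 11.9, 18.4 and 15.0 CPM in C1HDT. Hoxb1 thus made up most of the C1T sum, and the day 4 gap of the sum does not describe the other members. It was at or under the floor in all C1 libraries, so no fold is given (edgeR adjusted p = 3.4e-05). Of 11 trophectoderm genes 3 were higher and 1 lower, and the lower call, of Esx1, was lost without C1 replicate 2 or C1T replicate 4. The higher ones, Krt8 (2.58 ± 0.43), Krt18 (1.35) and Tead4 (1.99 ± 0.38), are not confined to that lineage, and the defining factor Cdx2 was between 0 and 1.83 CPM in the 16 libraries. Fibroblast markers summed to 9.11 to 21.6 CPM in the 16 libraries, where 1 of 4 tested, Thy1, was lower. Thy1 was at 0.519 to 0.957 CPM in C1 and 10.1 to 11.4 CPM in C1H. The immediate response genes of cell handling gave 3 lower and no higher calls among 11, namely Atf3 (-1.88 ± 0.37) and the near-identical heat shock genes Hspa1a and Hspa1b, whose reads may be split. Without C1 replicate 1, 1 of these 3 calls was left.

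Components of the translation and respiration machinery had calls in both directions where encoded in the nucleus, and lower calls alone where encoded in the mitochondrion. Of 79 cytosolic ribosomal protein genes 17 were higher and 17 lower, with a median of -0.05, against 12.6% in each direction over all genes. Scaling by library size alone gave 16 and 24, and the lower calls were 9 without C1 replicate 1, 11 without C1H replicate 3 and 10 without C1HDT replicate 3. The nuclear genes of the respiratory chain had 28 higher and 8 lower calls among 82, with a median of 0.12. The mitochondrial genes of the same chain had 6 lower and no higher calls among 12, with a median of -0.99. mt-Nd5, a subunit of complex I, was at 702, 789, 767 and 687 CPM in C1, 1015, 956, 1014 and 1068 CPM in C1H, 578, 521, 599 and 643 CPM in C1T, and 243, 237, 264 and 269 CPM in C1HDT (-1.67 ± 0.11, edgeR adjusted p = 6.3e-25). Induced cells thus had the higher level at day 0 and the lower at day 4, without overlap. mt-Nd4 averaged 5742, 5880, 7013 and 1795 CPM (-2.0 ± 0.21). Of 18 genes of the integrated stress response, 5 were higher and 6 lower, with Asns and Shmt2 both at 0.60 and Atf4 at -0.34.

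In 380 called genes at least 1 group was at the floor in all its libraries, and the estimated interaction is then no measure of size. Of these, Igfbp5, a binding protein of insulin-like growth factors, was at 30.6, 45.8, 39.4 and 47.6 CPM in C1HDT and between 0 and 3.91 CPM elsewhere. Serpinb6c, a serine protease inhibitor, averaged 44.5 CPM in C1 and 25.02 CPM in C1H, was at 0, 0.832, 0.476 and 1.96 CPM in C1T, and averaged 8.99 CPM in C1HDT. Bcl11a, a zinc finger repressor, was at 60.4, 45.8, 66.2 and 61.3 CPM in C1T, at 15.6, 16.7, 17.6 and 14.3 CPM in C1HDT, and between 0 and 3.30 CPM at day 0. Dio3, the enzyme that inactivates thyroid hormone, was at 63.3, 62.0, 61.2 and 63.4 CPM in C1H and 5.87 to 10.9 CPM in C1, and under 3 CPM at day 4. Ttll3 fell with and without induction, and its call (edgeR adjusted p = 0.021) was lost without C1HDT replicate 1 (0.211) or replicate 4 (0.0517).

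The same interaction was computed with the moderate fraction kept under both inducers (C1MDT and C1M) and with the high fraction after withdrawal of the inducers (C1HV and C1H). All 3 share the C1 and C1T libraries, so the values are set side by side, and the tests that compare them use the other libraries alone. For Lama1 the interactions were 5.44, 5.27 and 5.31 in the order high constant, moderate constant and high withdrawn. For Sparc they were 4.71, 4.54 and 4.12, for Foxa2 3.75, 3.30 and 3.28, for Pfkl 2.05, 1.91 and 1.49, and for Sycp1 -5.07, -4.69 and -4.54. Cdh1 had -2.06, -2.06 and -1.90.

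**Figure D5:**
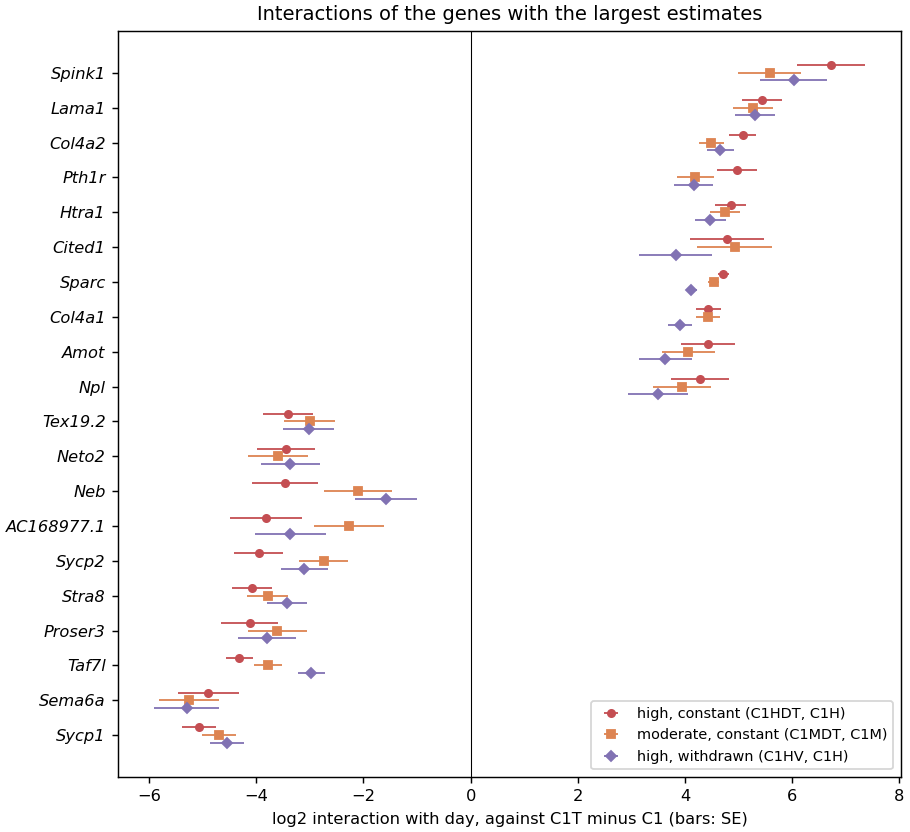
Log2 interaction with day for the 20 genes with the largest estimates within the limits below. Shown are high constant (red circles), moderate constant (orange squares) and high withdrawn (purple diamonds) induction, with bars for the SE. All 3 are set against the same C1 and C1T libraries. The genes were chosen by the high constant comparison, where they run from 6.72 for Spink1 to -5.07 for Sycp1, and the other values are a description.

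The test of high against moderate constant induction, (C1HDT minus C1H) minus (C1MDT minus C1M), called 156 of 15280 genes (1.02%), 115 higher and 41 lower. Ctnnb1 was among them (-1.71, edgeR adjusted p = 1.5e-06), as its interaction with day was -0.75 in the high fraction and 0.96 in the moderate one. Of the 20 genes with the largest interactions, AC168977.1, a gene model on an unplaced scaffold, was the 1 with a call (-1.55, edgeR adjusted p = 0.046), and S100a13 also passed (0.78, edgeR adjusted p = 0.040). No basement membrane, endoderm, glycolysis or germline member was called. Cytosolic ribosomal protein genes gave 24 higher and no lower calls among 79, where 0.753% of all genes tested were called higher. Their median difference was 0.30, against 0.01 over all genes. Nuclear respiratory chain genes gave 12 higher and none lower among 82, with a median of 0.27. These counts ranged from 10 to 28 and from 4 to 18 over the alternatives, and were lowest without C1HDT replicate 4 (10 and 4). No C1M or C1MDT library was left out. The test called 46 genes in all without C1HDT replicate 4, 97 without C1HDT replicate 3, 65 without C1H replicate 1 and 68 without C1H replicate 2.

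The difference between constant and withdrawn induction in the high fraction equals C1HDT minus C1HV, and 2437 genes (15.9%) were called, 9.06% higher and 6.89% lower. All 21 cholesterol synthesis genes tested were higher with constant induction, by 1.47 for Pmvk and 0.80 for Cyp51. Of 18 glycolysis genes 10 were higher and 1 lower. Naive pluripotency genes were lower in 14 of 18 and higher in 1. Taf7l was lower (-1.35, edgeR adjusted p = 2.6e-08) and 6 of 17 germline genes in all. Of 13 basement membrane genes 5 were higher and 1 lower. Sparc was higher by 0.59 and Col4a1 by 0.53, small beside their interactions of 4.71 and 4.44, and Lama1 had no call (0.13 ± 0.12).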

How the data were processed

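The authors used bbduk for trimming, STAR for alignment to mm10 and htseq-count for counting. The values the authors deposited are raw counts per gene and library, and the strand setting of the counting is not given in the sources used here. Rows that name no gene were left out of library sizes, with reads on no feature at 10.1% to 23.1% in the 16 libraries. All 32 libraries of 8 groups were fitted together with edgeR 4.0.16 in R 4.3.3 (quasi-likelihood test, robust, TMM scaling) on the 15280 genes that reached 1 CPM in 4 or more libraries, with Benjamini-Hochberg adjustment over all of them and a threshold of 0.05. The SE given is the absolute estimate divided by the square root of the F statistic of the quasi-likelihood test. A group with 3 counts or fewer in each library was taken as at the floor and given no fold. CPM values use TMM-scaled library sizes, and the floor covers counting error only. The labels call the replicates biological and name no batch. The study used ComBat-Seq, with replicates taken as batches, to gauge the batch effect, and described its correction as negligible. ComBat-Seq was not applied here.

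Among called protein-coding genes that averaged 2 or more in log2 CPM with no group at the floor, the genes named were the 10 with the largest estimates in each direction, the 3 with the smallest adjusted p, and the 4 with the largest opposite effects at both days. The 3 floor genes of highest mean in each direction, up to 4 called members per list and direction, Ctnnb1 and Axin2 were added. Other list members were named after their values were seen. The members and lists were chosen with earlier results of these data known. Gene positions are from GENCODE M21 (GRCm38). The scripts were tested on simulated data. Alternatives were DESeq2 1.42.0, limma 3.58.1, other scalings and filters, a replicate block, the 16 libraries alone and each of these 16 left out in turn, while no moderate or withdrawn library was left out.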

Additional observations from a re-analysis of the deposited data

Results flagged for a closer look

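The interaction itself is a difference of the effect of induction between days, and 3854 genes were singled out by its test. Between the high and the moderate fraction under constant induction it differed for 156 genes, among them Ctnnb1 (-1.71 on the log2 scale), AC168977.1 (-1.55) and S100a13 (0.778). A single library stood apart from the other 3 of its group for 4 of 120 sets of 4 libraries examined over 29 genes and the total counts, where chance gives about 1 in 20. These were Neb at 2.86 CPM in C1HDT replicate 2, Neto2 at 1.96 CPM in C1T replicate 4 and at 1.91 CPM in C1HDT replicate 2, and S100a1 at 21.5 CPM in C1T replicate 4.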

How the results depend on the processing

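The number of genes with a called interaction was 3638 with DESeq2, 4001 with limma, 3865 with the RLE factors of edgeR, 3920 with library size alone, 3675 without a filter, 3428 with at least 1 CPM in all 16 libraries, 3994 from the 16 libraries alone, and 3480 to 3790 with 1 library left out. Higher calls ranged from 1731 to 2036 and lower calls from 1645 to 1786 with 1 library left out. With library size alone they were 1740 and 2180. Opposite effects at both days ranged from 486 to 580, and constant minus withdrawn induction called 1873 to 2442 genes. The high minus moderate test moved most, from 156 genes to 76 with limma, 227 with DESeq2, and to 46 to 156 with 1 of the 16 libraries left out. Libraries of C1M, C1MDT and C1HV were not left out in any setting, so the ranges of the comparisons with the moderate and withdrawn groups do not cover them. The cause was not tested. Replicate numbers did not pair the samples, since deviations from the group means correlated at -0.0026 on average for the same number and 0.00086 for other numbers, and a replicate block gave 3817 called interactions (1909 higher and 1908 lower), 553 opposite effects, 129 genes for high minus moderate and 2400 for constant minus withdrawn induction. Of 3131 recomputed values for 132 named genes, 3015 kept direction and side of the threshold, 110 lost the call, 6 gained it and none turned direction. The mitochondrial genes, such as mt-Nd5 and mt-Nd4, are not among these 132. Their list had 6 to 8 lower calls over the alternatives. The counts of ribosomal and respiratory genes in the high minus moderate test were recomputed after seeing the data. Genes of a few CPM are limited by depth, as 3 counts were worth up to 1.91 CPM.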
